A study of Mus musculus with 35 samples.

Results

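Crypt-base stem cell genes are genes whose RNA marks the cells at the bottom of intestinal crypts. A list of 10 such genes, Lgr5, Ascl2, Lrig1, Smoc2, Sox9, Cdca7, Prom1, Ephb2, Ephb3 and Olfm4, was followed by name in mouse colon tumour organoids, out of 54354 genes in the deposited table. All 10 were found, each once. Of these, 9 had enough counts to be tested in every comparison, and Olfm4 had no counts in any library.

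The organoids, labelled as tumour cells of the colon with genotype AKP, were grown in vitro and measured by RNA sequencing in 35 libraries. The labels do not list the alleles behind that name, and all control and treated organoids carry the same genotype label. The palmitic acid experiment held 3 control libraries, 3 libraries of treated batch 1 and 2 libraries of treated batch 2. The carmofur experiment held 12 control libraries and 15 treated libraries. Palmitic acid is a saturated fatty acid from which cells make ceramides, and carmofur is a ceramidase inhibitor and a derivative of fluorouracil. The comparisons ask how RNA levels respond when fatty acids or ceramides are altered. Not given in the sources used here were the dose, exposure time, vehicle, organoid line and animal of origin. Whether libraries sharing a group were grown as separate cultures is also unstated, so a p-value measures only the spread between libraries, which may be technical.

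Stem cells at the crypt base renew the intestinal epithelium. Wnt signals keep them in place: R-spondins bind Lgr5 and related receptors and strengthen Wnt signalling, the transcription factor Ascl2 carries the stem cell programme, and EphB receptors position cells along the crypt against ephrin-B ligands above them. Loss of Apc, a brake on the Wnt pathway, is a common first step of colon tumours, whose cells often show parts of this crypt-base programme.

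Libraries of the palmitic acid experiment held 762888 to 3742289 counts in total, with control 1 the shallowest, and those of the carmofur experiment held 1663750 to 10609563. Levels are given in CPM, a gene's counts after scaling all libraries to a common total, which was done within each experiment, so that levels of the 2 experiments are not directly comparable. Epithelial markers such as Epcam, Krt8 and Vil1 summed to between 3135 and 6664 CPM over 10 genes in all libraries, as an epithelial tissue has. The stromal genes Col1a1, Col1a2, Pdgfrb and Lum were at 0 in every group, as were Cd3e and Csf1r (immune) and Cdh5 and Kdr (endothelial). Others of these lists were detected, among them Vim, Cd68 and Pecam1. Col3a1, Pdgfra and Dcn had counts in the carmofur controls, and Ptprc, Cd79a and Lyz2 had counts with carmofur. The 8 stromal genes summed to at most 78.3 CPM in any library and the 6 immune genes to at most 166 CPM. The differentiation markers Muc2 of goblet cells and Car4 of colonocytes had at most 2 counts and 0 counts in any group. Other markers of both cell types were expressed. The listed 7 goblet genes summed to between 83.8 and 394 CPM and the 10 absorptive colonocyte genes to between 2440 and 7016 CPM in all libraries. Carmofur control 1 and carmofur libraries 8 and 10 stood apart from the other 24 libraries of that experiment, with scores of 115.39, 36.84 and 37.89 on the second principal component against -21.30 to 4.90. Results that rest on them are given with and without them. The RNA came from whole organoids, so fewer cells of a type and less RNA per cell cannot be told apart.

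The untreated organoids expressed the 9 detected genes at very different levels. Per kilobase of exon, the order by mean in the 12 carmofur controls was Cdca7, Ascl2, Prom1, Sox9, Lrig1, Ephb2, Smoc2, Lgr5 and Ephb3. Cdca7, a Myc-responsive nuclear protein of dividing cells that acts with the chromatin remodeller Hells, stood at 38.1 ± 9.41 CPM per kilobase (SD, n = 12). Ascl2 stood at 19.6 ± 11.6, Prom1 at 16.3 ± 6.10 and Sox9 at 15.7 ± 6.0 CPM per kilobase, and these 3 neighbours did not differ beyond their spread. Lrig1 stood at 5.69 ± 2.79 CPM per kilobase, above the means of the remaining genes. Ephb2 at 1.76 ± 1.06, Smoc2 at 1.47 ± 1.75, Lgr5 at 1.31 ± 0.978 and Ephb3 at 0.799 ± 0.572 CPM per kilobase overlapped widely. Lgr5, the receptor by which crypt-base cells are usually recognised, was thus among the lowest of these genes in untreated organoids. In the 3 palmitic acid controls Lgr5 stood at 0.528 ± 0.356 CPM per kilobase (SD, n = 3), again far under Cdca7 at 47.3 ± 5.13.

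**Figure D1:**
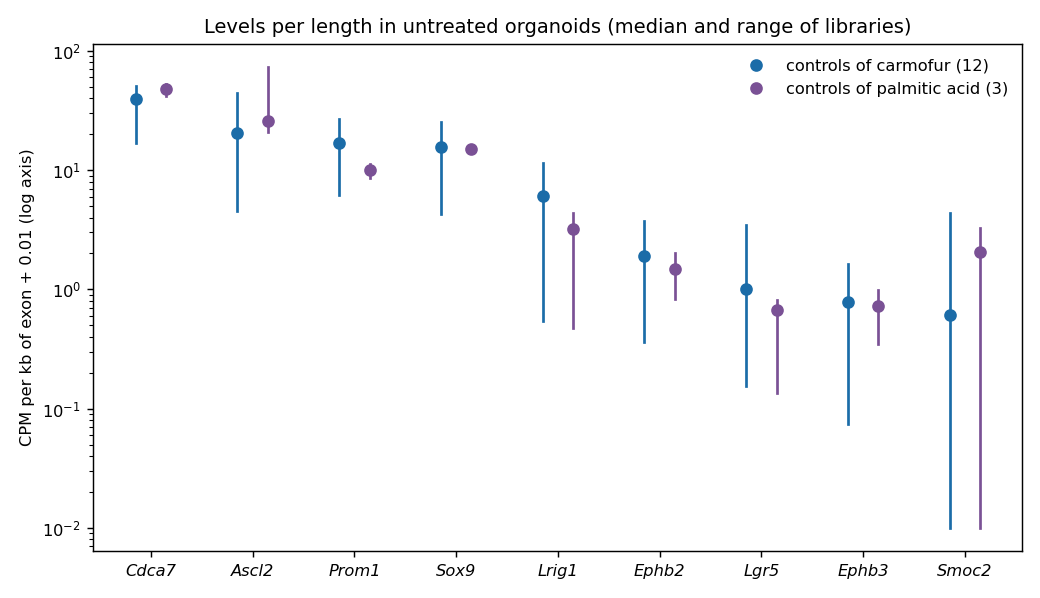
CPM per kilobase of exon (plus 0.01, log axis) of the 9 detected genes in untreated organoids. Points are medians and lines the range over the 12 carmofur controls (blue) and the 3 palmitic acid controls (purple), each scaled within its own experiment. Cdca7, Ascl2, Prom1 and Sox9 sit highest, and the lines of Ephb2, Lgr5, Ephb3 and Smoc2 overlap.

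The low genes varied most between libraries of a group. Over the 12 carmofur controls the coefficient of variation was 119% for Smoc2, 74.5% for Lgr5 and 71.5% for Ephb3, against 24.7% for Cdca7, 37.3% for Prom1 and 38.1% for Sox9. Smoc2 ranged from 0 to 30.1 CPM in those controls and Lgr5 from 1.5 to 35.2 CPM. Few counts lay behind some of these values: a control library held between 7 and 276 counts of Lgr5, between 0 and 236 of Smoc2 and between 2 and 81 of Ephb3. Olfm4, which marks crypt-base cells in the mouse small intestine rather than the mouse colon, had 0 of 177872716 counts over all 35 libraries. A count of 0 allows up to 3 counts, or 0.0169 CPM over all libraries together and 0.283 CPM in the deepest library. The protocols name no molecular identifiers, so such limits cover counting error only.

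In the main test 3 of the 9 tested genes were lower with carmofur and 1 was higher. Lrig1, Cdca7 and Ascl2 fell and Prom1 rose, with fitted falls of 3.36-fold, 1.58-fold and 2.31-fold and a rise of 1.42-fold. Lgr5, Smoc2, Sox9, Ephb2 and Ephb3 did not pass the test. Among all 9992 genes tested, 9.02% passed, 5.21% higher and 3.8% lower (edgeR's quasi-likelihood test, Benjamini-Hochberg adjusted p under 0.05). The median log2 fold change was -0.76 over the 9 genes and 0.00 over all genes tested. For none of the 9 genes did the carmofur libraries separate entirely from the controls, as they did for 0.761% of all genes tested. The same 4 genes passed with DESeq2, and 3 of them, without Ascl2, with limma-voom. Without the 3 libraries that stood apart 2 passed, Lrig1 and Cdca7. With counts summed over sets of 3 consecutive library numbers, Lrig1 alone passed.

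**Figure D2:**
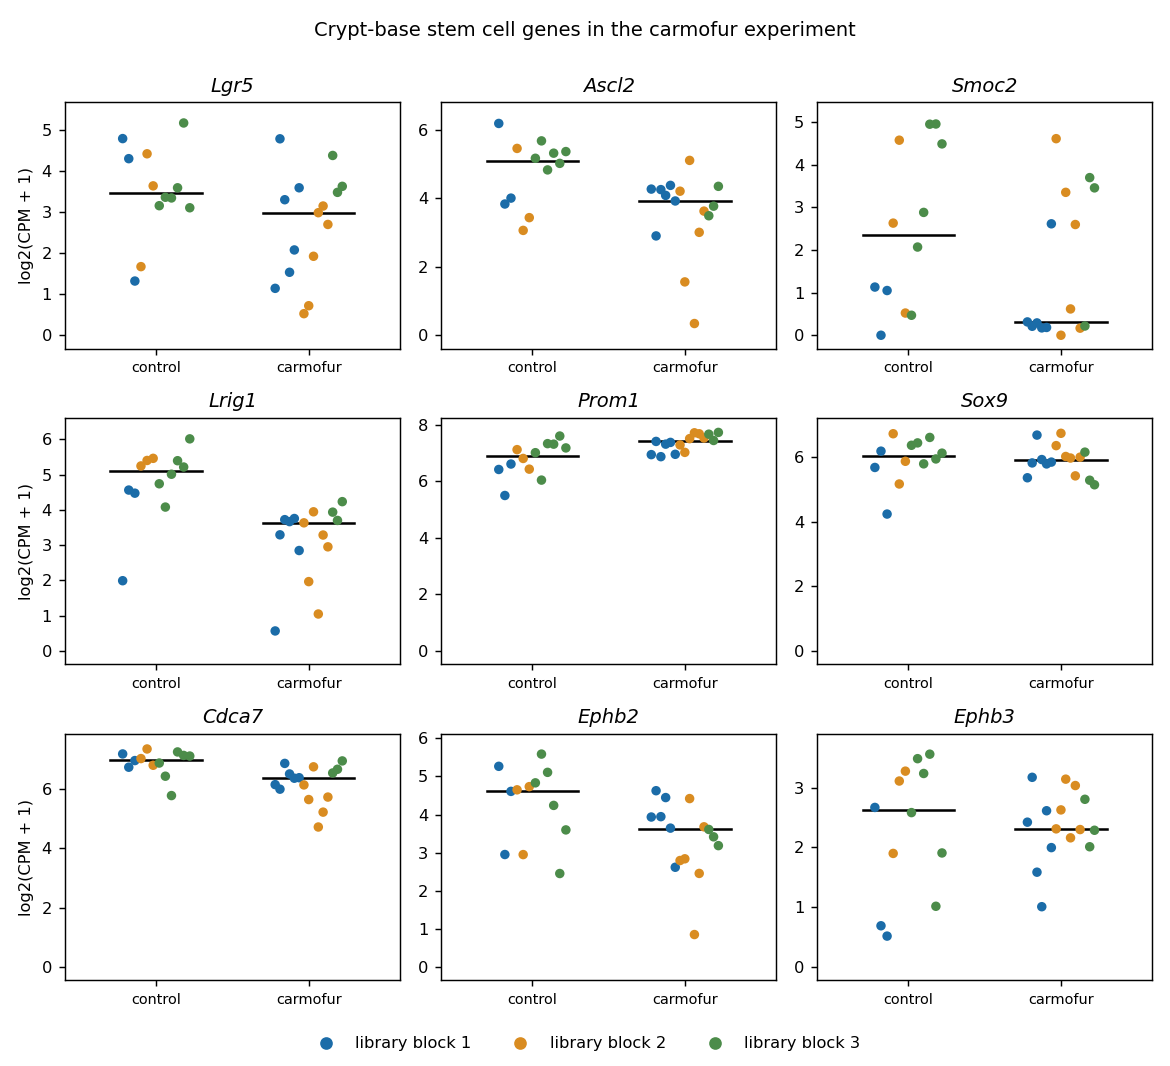
Level of each of the 9 detected genes in the 12 control and 15 carmofur libraries, as log2(CPM + 1), 1 point per library, coloured by block of library numbers; black lines are group medians. The carmofur points of Lrig1 and Cdca7 all lie under the control median, and 14 of 15 points of Prom1 lie above it.

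Lrig1, a transmembrane protein that restrains ErbB receptor signalling and marks slowly dividing crypt cells, fell furthest. Its level was 2.98, 33.6 and 63.5 CPM in the lowest, median and highest control library and 0.484, 11.4 and 17.8 CPM in the lowest, median and highest carmofur library. Control 1, with 5 counts, and carmofur library 1, with 2 counts, were the lowest of their groups, and the groups overlapped: 10 of 12 controls lay above every carmofur library, and all 15 carmofur libraries lay below the control median. For comparison, all 15 lay below the control median for 2.65% of the genes tested. The mean was 31.8 ± 15.6 CPM (SD, n = 12) in controls and 9.42 ± 5.08 CPM (SD, n = 15) with carmofur, a log2 fold change of -1.75 ± 0.38 (SE; edgeR, adjusted p = 0.00133). The fall held without the 3 libraries that stood apart, at a log2 fold change of -1.70 (edgeR, adjusted p = 2.6e-04). It also held without each of the 27 libraries in turn (adjusted p from 2.62e-04 to 0.00436).

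Cdca7 fell by less. Its level was 54.1, 127 and 163 CPM in the lowest, median and highest control and 25.4, 81.7 and 123 CPM in the lowest, median and highest carmofur library. The groups overlapped, with all 15 carmofur libraries below the control median and 7 of 12 controls above every carmofur library. The mean was 122 ± 30.1 CPM (SD, n = 12) in controls and 77.3 ± 28.7 CPM (SD, n = 15) with carmofur, a log2 fold change of -0.66 ± 0.19 (SE; edgeR, adjusted p = 0.0165). Without the 3 libraries that stood apart the log2 fold change was -0.52 (edgeR, adjusted p = 0.0477), and with each library left out in turn the adjusted p stayed between 0.00535 and 0.0358. When the counts were summed over sets of 3 consecutive library numbers, giving 9 sums, Cdca7 no longer passed (edgeR, adjusted p = 0.269), and neither did it without set 4, 6 or 9 (highest adjusted p = 0.0745). Those sets hold controls 4 to 6, carmofur libraries 10 to 12 and controls 10 to 12.

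Ascl2, the transcription factor of the crypt-base programme, was at 7.33, 33.1 and 71.4 CPM in the lowest, median and highest control and at 0.267, 14.1 and 33.3 CPM in the lowest, median and highest carmofur library. The lowest carmofur libraries were 10, with 1 count, and 8. Of the 15 carmofur libraries 14 lay below the control median, and 6 of 12 controls lay above every carmofur library. The mean was 31.8 ± 18.8 CPM (SD, n = 12) in controls and 13.7 ± 8.2 CPM (SD, n = 15) with carmofur, a log2 fold change of -1.21 ± 0.39 (SE; edgeR, adjusted p = 0.0417). This call lay near the threshold: without the 3 libraries that stood apart the log2 fold change was -0.85 (edgeR, adjusted p = 0.0928), and with the block of library numbers as a covariate it was -1.08 (adjusted p = 0.106). Ascl2 also failed to pass with counts summed by set (adjusted p = 0.162), with library-size scaling (0.0513) and with limma-voom (0.0533). It was also lost without any 1 of controls 1, 4, 7, 8, 10, 11 and 12 or carmofur libraries 2, 6, 11, 12, 13 and 14, with adjusted p between 0.0184 and 0.0991 over all 27 libraries left out in turn.

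Prom1 encodes CD133, a membrane glycoprotein of stem and progenitor cells that many other epithelial cells also carry. It moved the other way. Its level was 44.2, 120 and 193 CPM in the lowest, median and highest control and 116, 169 and 211 CPM in the lowest, median and highest carmofur library. Of the 15 carmofur libraries 14 lay above the control median, and 6 of 12 controls lay below every carmofur library. The mean was 117 ± 43.8 CPM (SD, n = 12) in controls and 167 ± 32.7 CPM (SD, n = 15) with carmofur, a log2 fold change of 0.51 ± 0.16 (SE; edgeR, adjusted p = 0.0391). Without the 3 libraries that stood apart it did not pass (log2 fold change 0.47, adjusted p = 0.0792), nor with counts summed by set (adjusted p = 0.201). It was also lost without any 1 of controls 1, 2, 3, 5, 6, 7 and 8 or carmofur libraries 4, 5, 9, 10, 11, 12, 13, 14 and 15 (adjusted p between 0.0137 and 0.0863 over all 27). Without the 3 libraries, then, 2 of the 9 genes passed, Lrig1 and Cdca7, both lower, and 929 genes passed in all.

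Promoter sequences of the 3 genes that fell are shown because the genes fell in the same comparison. They are RefSeq sequences of GRCm38.p6, the patched form of mm10, written along the gene's strand and ending where the GENCODE gene model begins. Capitals mark the letters CCAAT or their reverse complement ATTGG, a common element of promoters. The windows are chr7:142969265-142969514 on the minus strand for Ascl2, chr6:94700159-94700395 on the minus strand for Lrig1 and chr2:72475969-72476158 on the plus strand for Cdca7.
Ascl2: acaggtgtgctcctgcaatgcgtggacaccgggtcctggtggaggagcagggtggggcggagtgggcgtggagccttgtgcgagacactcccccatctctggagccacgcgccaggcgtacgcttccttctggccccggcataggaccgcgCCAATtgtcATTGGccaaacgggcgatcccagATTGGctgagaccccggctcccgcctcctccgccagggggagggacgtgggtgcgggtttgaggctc
Lrig1: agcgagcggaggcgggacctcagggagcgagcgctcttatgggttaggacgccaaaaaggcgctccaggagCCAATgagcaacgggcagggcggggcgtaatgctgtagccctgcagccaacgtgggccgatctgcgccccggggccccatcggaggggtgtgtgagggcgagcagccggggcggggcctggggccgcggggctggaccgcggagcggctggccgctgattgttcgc
Cdca7: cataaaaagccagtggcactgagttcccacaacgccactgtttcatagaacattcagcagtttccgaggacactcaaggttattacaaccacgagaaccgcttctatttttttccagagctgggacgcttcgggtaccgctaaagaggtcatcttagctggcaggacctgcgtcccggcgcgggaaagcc
These stretches held 3, 1 and 0 matches. A RefSeq promoter was given for 7 of the 10 genes. In the 250 bases before their RefSeq starts, CCAAT or ATTGG was present in 5 of 7, against 33.8% of 32851 promoters of the same length. The windows of Prom1 and Olfm4, which are among those with a match, lie inside the GENCODE gene model. The letters CTTTGA or TCAAAG, the core of the TCF/LEF motif through which Wnt signals reach DNA, were present in 0 of 7, against 13.8% of the promoters. Such matches describe letters in these windows and no binding was measured.

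The receptor Lgr5 itself was at 1.5, 10.2 and 35.2 CPM in the lowest, median and highest control and at 0.440, 6.94 and 26.7 CPM in the lowest, median and highest carmofur library. The groups overlapped over most of their range, with 10 of 15 carmofur libraries below the control median. The mean was 13.5 CPM in the 12 controls and 7.93 CPM in the 15 carmofur libraries, a log2 fold change of -0.76 ± 0.53 (SE; edgeR, adjusted p = 0.505). The 95% interval ran from -1.79 to 0.27 on the log2 scale, which includes 0. Smoc2, a secreted matrix protein that marks Lgr5-positive cells, had medians of 4.20 CPM in controls and 0.242 CPM with carmofur, but ranged from 0 to 30.1 and from 0 to 23.5 CPM (log2 fold change -1.20 ± 0.86 (SE); edgeR, adjusted p = 0.524). Without set 9, which holds controls 10 to 12, the log2 fold change of Smoc2 was -0.05. Neither gene showed a difference beyond the spread between libraries.

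Sox9, a transcription factor of crypt-base and progenitor cells, was close in both groups, with means of 65.0 ± 24.8 CPM (SD, n = 12) in controls and 61.4 ± 21 CPM (SD, n = 15) with carmofur. Its log2 fold change was -0.08 ± 0.21 (SE; edgeR, adjusted p = 0.902), with a 95% interval from -0.49 to 0.32. Ephb2, the receptor whose level is highest at the crypt base, had means of 22.1 ± 13.4 CPM in controls and 11.2 ± 6.60 CPM with carmofur, and 14 of 15 carmofur libraries lay below the control median. Its log2 fold change of -0.97 ± 0.39 (SE) did not pass the test over all genes (edgeR, p = 0.0175, adjusted p = 0.13). Ephb3, its close relative, had means of 5.31 ± 3.80 and 4.53 ± 2.05 CPM (log2 fold change -0.23 ± 0.55 (SE); adjusted p = 0.902).

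By their library numbers the carmofur-experiment libraries form 3 blocks, each with control and treated libraries, which the labels do not call batches. Within block 2, which held 3 controls and 6 treated libraries, 2 of the 9 genes passed, both lower, where 8.14% of all genes tested passed and 3.39% were lower. Lrig1 was at 36.9 to 43.0 CPM in those controls and at 1.07 to 14.4 CPM in the treated libraries, without overlap (log2 fold change -2.40 ± 0.66 (SE); edgeR, adjusted p = 0.0161). Cdca7 was at 111 to 163 CPM in the controls and 25.4 to 107 CPM in the treated libraries, also without overlap (-1.24 ± 0.30 (SE); adjusted p = 0.0056). Groups did not overlap either for Prom1 in block 1, where it was higher, and for Ascl2 in block 3, where it was lower. The share of all genes whose groups separate within a block was not computed, so these separations cannot be weighed against it. None of the 9 genes passed in block 1, where 1.76% of all genes did and 1 of the 9, Prom1, had an unadjusted p under 0.05, or in block 3, where 6.06% did and 0 of the 9 had such a p. The other tools were not run within blocks.

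Across the blocks the direction was the same for Lrig1, Cdca7, Ascl2, Ephb2 and Prom1. The log2 fold changes of Lrig1 were -0.86, -2.40 and -1.28 in blocks 1, 2 and 3, those of Ascl2 -1.10, -0.74 and -1.40, and those of Cdca7 -0.57, -1.24 and -0.12. Prom1 was higher in each block (0.93, 0.67 and 0.47), and its control level also differed between blocks, with means of 75.2, 111 and 141 CPM. Lgr5 was at -0.81, -1.48 and 0.05 and Sox9 at 0.39, 0.08 and -0.65. In the test of whether the carmofur effect differed between blocks none of the 9 genes passed, against 1.78% of all genes tested (edgeR; 0 also with DESeq2 and with limma-voom). Cdca7, alone of the 9, had an unadjusted p under 0.05 in that test (p = 0.0431, adjusted p = 0.405).

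**Figure D3:**
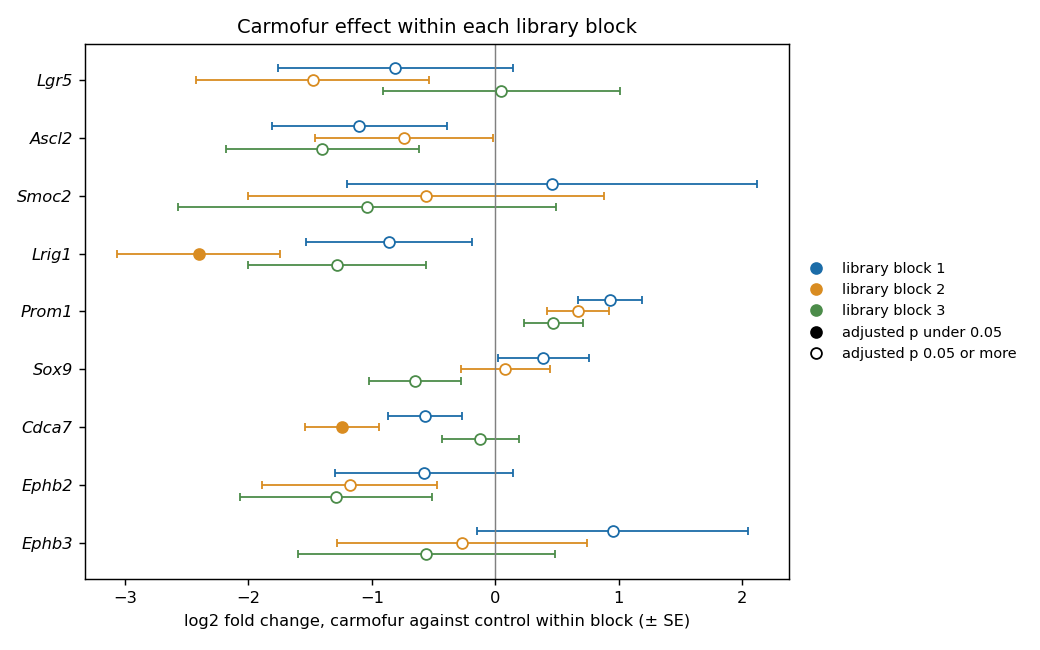
Log2 fold change of carmofur against control within each block of library numbers, with its standard error, for the 9 detected genes; filled points passed at an adjusted p under 0.05 within the block. Lrig1 and Cdca7 in block 2 are filled, at -2.40 and -1.24, and all 3 points of Prom1 lie to the right of 0.

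Within a group the 9 genes mostly did not vary together. Of 72 pairs, 36 within the 12 controls and 36 within the 15 carmofur libraries, 1 passed after Benjamini-Hochberg adjustment. In carmofur libraries Ascl2 and Cdca7 had a Pearson r of 0.82 on log2(CPM + 1) (permutation p = 4.80e-04, adjusted p = 0.0346, n = 15) and a Spearman rho of 0.70 (permutation p = 0.00517, adjusted p = 0.184). Without carmofur libraries 8 and 10, the farthest from the median of Ascl2, r was 0.65 and the pair no longer passed (adjusted p = 0.459), so the relation rests in part on those libraries. With block means subtracted r was 0.85 (adjusted p = 0.0216). The genes closest to Lgr5 over the 27 libraries, by r of deviations from group means among 8670 genes, were Rbm5 (r 0.65, rho 0.56), Slc20a2 (r 0.60, rho 0.40) and Fastkd5 (r 0.59, rho 0.60). They were chosen for these values and carry no test.

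Other genes of the same pathways were read beside these. Of 17 Wnt feedback and target genes 15 were tested with carmofur and 1, Cd44, rose, at a log2 fold change of 0.91 ± 0.14 (SE; edgeR, adjusted p = 1.01e-05). Cd44 is a hyaluronan receptor of crypt cells. The median of the 15 was -0.17. Axin2, a direct readout of Wnt signalling, had means of 37.7 ± 16.0 CPM (SD, n = 12) in controls and 33.6 ± 15.1 CPM (SD, n = 15) with carmofur (log2 fold change -0.17 ± 0.27 (SE), adjusted p = 0.832). The Wnt inhibitors Nkd1 (-0.85), Rnf43 (-0.41) and Znrf3 (-0.92), the target Myc (0.44) and the receptor Lgr4 (0.41) did not pass either.

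Of 16 further crypt-base signature genes 11 were tested and 0 passed with carmofur by edgeR, with 1 at an unadjusted p under 0.05. With DESeq2 0 passed and with limma-voom 1 did, higher, and without the 3 libraries that stood apart 1 passed, also higher. Of 15 ephrins and other Eph receptors 9 were tested and 0 passed by edgeR, DESeq2 or limma-voom, with 0 at an unadjusted p under 0.05 by edgeR. Efnb1 and Efnb2, the ligands of Ephb2 and Ephb3, had log2 fold changes of 0.84 ± 0.75 and 0.05 ± 0.47 (SE). Of 13 Notch pathway genes 5 were tested and 0 passed by edgeR, with 2 at an unadjusted p under 0.05, while DESeq2 and limma-voom each called 1 higher and 1 lower. Hes1, a Notch target, was at 0.12 ± 0.29 (SE). Of the 6 genes of the ErbB family and its Lrig relatives other than Lrig1, 4 were tested and 0 passed by any of the 3 tools, with 0 at an unadjusted p under 0.05 by edgeR. Egfr, the receptor that Lrig1 restrains, was at 0.06 ± 0.66 (SE).

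Markers of other epithelial states moved in the same libraries. Of 13 tested genes of the regenerative, fetal-like state that intestinal epithelium enters after injury, 7 rose with carmofur and 0 fell, with 6 rising without the 3 libraries that stood apart. Over all genes tested, 5.21% were called higher and 3.8% lower. This and the next lists were chosen with earlier results of these data known, so an excess over those shares is no independent support. Clu, which marks revival stem cells, had means of 12.4 ± 12.5 CPM (SD, n = 12) in controls and 93.0 ± 46.5 CPM (SD, n = 15) with carmofur (log2 fold change 2.92 ± 0.49 (SE); edgeR, adjusted p = 7.31e-05). Il1rn rose by 1.13 ± 0.13 (SE) and Ly6a, which encodes Sca-1, by 0.25 ± 0.08 on the log2 scale. Of 5 tested absorptive colonocyte genes 3 rose, among them the keratin Krt20, from 4.24 ± 4.15 to 30.5 ± 10.1 CPM (log2 fold change 2.82 ± 0.51 (SE); adjusted p = 1.01e-04). The summed level of 10 absorptive genes ranged from 3192 to 4333 CPM in controls and from 5225 to 7016 CPM with carmofur, with Car4 at 0 in both groups. Of the 10 genes 5 had 0 counts in controls and 1 with carmofur. Krt20 was a small part of that sum, so it does not describe all 10 genes alike. The goblet cell gene Agr2 fell, at a log2 fold change of -0.64 ± 0.15 (SE; adjusted p = 0.00258), and Muc2 was at 0 in both groups. Of 12 genes of G2 and mitosis 5 rose and of 15 S phase genes 3 rose (5 without the 3 libraries that stood apart), while Mki67 was at 0.08 ± 0.12 (SE; adjusted p = 0.835). The S phase counts were not alike across blocks. In block 2 the test called 1 higher and 2 lower, with a median log2 fold change of -0.09, against 3 and 6 higher, 0 lower and medians of 0.70 and 0.59 in blocks 1 and 3. For 2 of the 15 the test of the carmofur effect between blocks passed (edgeR). The part of these shifts in the changes of Lrig1, Cdca7, Ascl2 and Prom1 was not tested.

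Palmitic acid batch 1 gave no change that passed the test in any of the 9 genes. Of all 9845 genes tested 0.559% passed (edgeR). Of the 9 genes 0 passed with DESeq2 or limma-voom, and by edgeR 2, Cdca7 and Prom1, had an unadjusted p under 0.05. The median log2 fold change was -0.09 over the 9 genes and 0.01 over all genes tested.

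**Figure D4:**
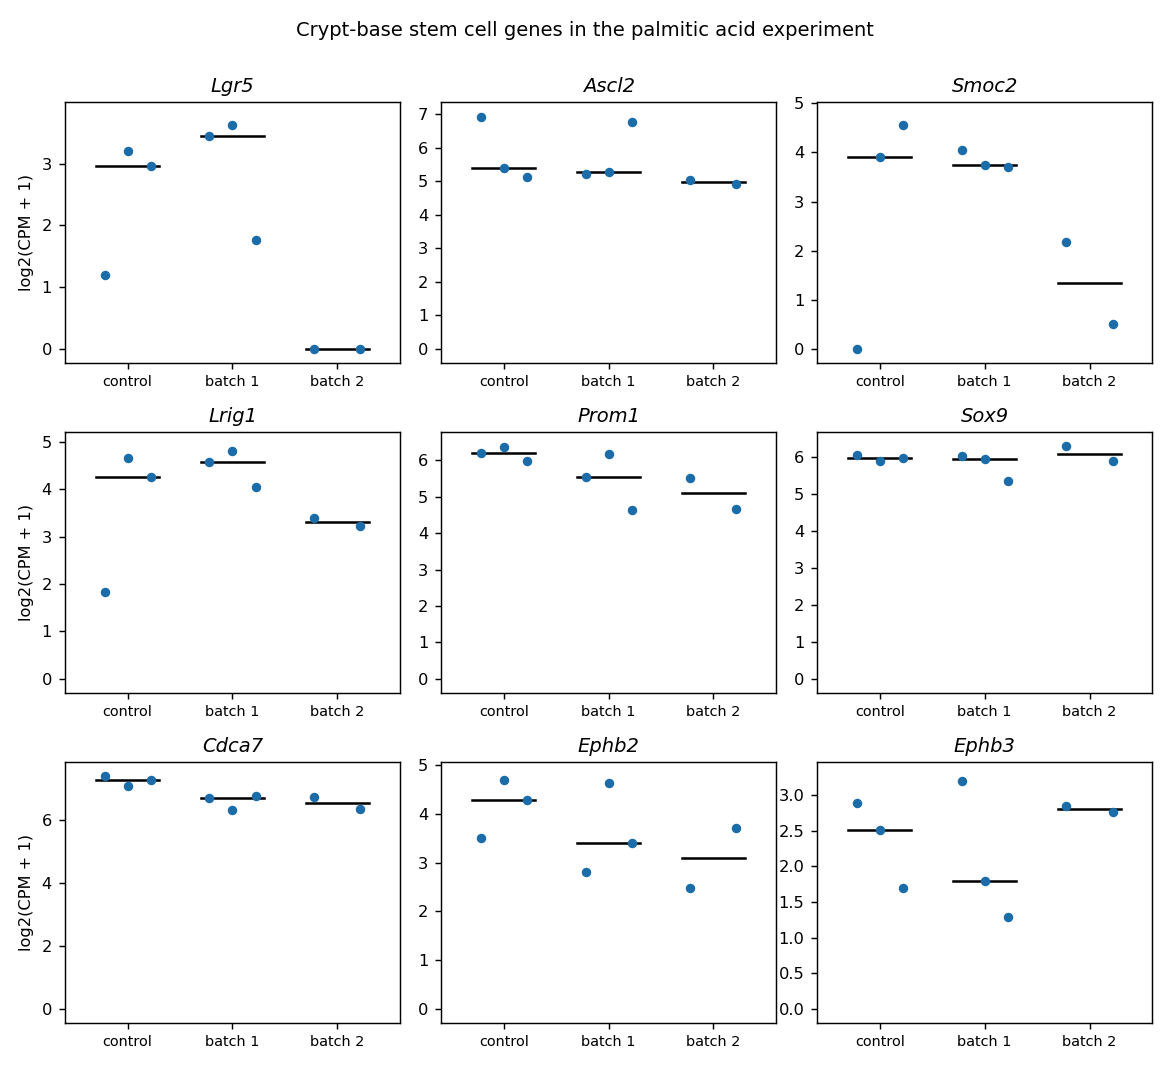
Level of each of the 9 detected genes in the 3 control, 3 batch 1 and 2 batch 2 libraries of the palmitic acid experiment, as log2(CPM + 1), 1 point per library; black lines are group medians. Both batch 2 points of Lgr5 are at 0, and all treated points of Cdca7 lie under the controls.

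Cdca7 was at 168, 135 and 153 CPM in controls 1, 2 and 3, at 103, 78.6 and 108 CPM in the libraries of batch 1 and at 104 and 81.1 CPM in those of batch 2. All 5 treated libraries lay below all 3 controls. In batch 1 Cdca7 was the only 1 of the 9 genes whose groups did not overlap. All treated libraries lay below all controls for 6.12% of the genes tested in that batch. The log2 fold change was -0.65 ± 0.20 (SE; edgeR, p = 0.00216, adjusted p = 0.183) in batch 1 and -0.70 ± 0.23 (SE; p = 0.00297, adjusted p = 0.248) in batch 2. The batches share the same controls. When both were merged into 1 treated group of 5 libraries, Cdca7 passed, at -0.69 (edgeR, adjusted p = 0.0379), as 1 of 70 genes that did.

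Batch 2 held 2 libraries, and no label ties the controls to a batch. Lgr5 had 0 counts in both libraries of batch 2, against 1, 21 and 15 counts in the controls and 23, 32 and 5 counts in batch 1. In CPM, Lgr5 was at 1.29, 8.23 and 6.75 in the controls and at 9.91, 11.3 and 2.40 in batch 1. Batch 2 did not overlap with either group. The limit of 3 counts over both libraries is 0.492 CPM. The pooled controls (6.66 CPM) lay 13.5-fold above it and pooled batch 1 (8.30 CPM) 16.9-fold. These folds cover counting error in batch 2 only and leave out the spread between libraries. The fitted 95% intervals of the log2 fold change reached -3.19 against controls and -3.67 against batch 1. They were derived from the fitted change and its test statistic. With both batch 2 libraries at 0 the size of that change is not measured, so these ends are approximate and set no firm limit. The difference from controls did not pass over all genes (edgeR, p = 3.79e-04, adjusted p = 0.0762). It passed with DESeq2 (adjusted p = 0.0411), and with edgeR when the shallow control 1 was left out (adjusted p = 0.038).

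None of the 9 genes passed in batch 2 by edgeR or limma-voom, against 0.325% of all genes tested by edgeR, and Lgr5 was the 1 gene that passed with DESeq2. By edgeR 4 of the 9, Lgr5, Smoc2, Cdca7 and Prom1, had an unadjusted p under 0.05. The median log2 fold change was -1.0 over the 9 genes and -0.01 over all genes tested. Groups did not overlap for 4 of the 9, Lgr5, Ascl2, Cdca7 and Prom1, all lower. Among all genes tested, groups did not overlap, higher or lower, for 19.9%, and both libraries lay below all controls for 9.02%.

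Smoc2 was at 0, 14.1 and 22.5 CPM in the controls, 15.5, 12.4 and 12.0 CPM in batch 1 and 3.52 and 0.416 CPM in batch 2. Batch 2 lay below batch 1 but not below control 1, and its difference from controls did not pass (log2 fold change -2.60 ± 0.91 (SE); edgeR, adjusted p = 0.344). The value rested on single libraries, at -4.78 without batch 2 library 1, -1.86 without batch 2 library 2 and -1.92 without control 3. Lrig1 was at 2.58, 24.3 and 18.0 CPM in the controls, at 22.8, 26.9 and 15.4 CPM in batch 1 and at 9.48 and 8.32 CPM in batch 2. Its batch 2 libraries lay below those of batch 1 and between control 1 and the other controls. The log2 fold changes of Lrig1 were 0.45 ± 0.53 (SE; adjusted p = 0.934) in batch 1 and -0.83 ± 0.61 (SE; adjusted p = 0.905) in batch 2.

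Ascl2 was at 119, 41.5 and 33.7 CPM in the controls, 36.2, 37.9 and 107 CPM in batch 1 and 31.7 and 29.5 CPM in batch 2. Control 1 and batch 1 library 3 stood high, and the other libraries were close to each other. The log2 fold changes of Ascl2 were -0.03 ± 0.64 (SE) in batch 1 and -1.0 ± 0.73 (SE) in batch 2, neither past the test. Without control 1 they were 0.67 and -0.30. Prom1 was at 72.2, 81.1 and 61.6 CPM in the controls, 45.2, 71.1 and 24.0 CPM in batch 1 and 44.7 and 24.5 CPM in batch 2. Of the 5 treated libraries 4 lay below all controls. The log2 fold changes of Prom1 were -0.60 ± 0.30 (SE; edgeR, adjusted p = 0.639) and -1.04 ± 0.35 (SE; adjusted p = 0.279).

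In controls Sox9 stayed within 59.1 to 65.7 CPM, in batch 1 within 39.9 to 64.2 CPM and in batch 2 within 58.2 to 78.3 CPM, with log2 fold changes of -0.17 ± 0.27 and 0.14 ± 0.29 (SE). Ephb2 ranged over 10.3 to 25.1 CPM (controls), 6.03 to 23.7 CPM (batch 1) and 4.6 to 12.1 CPM (batch 2), with -0.48 ± 0.58 and -1.16 ± 0.68 (SE). Ephb3 was low throughout, at 1.44 to 8.19 CPM over all 8 libraries, with -0.09 ± 1.04 and 0.48 ± 1.12 (SE). None of these 3 receptors and factors passed in either batch. Of the 17 Wnt feedback and target genes, all tested, 0 passed in either batch by edgeR, DESeq2 or limma-voom, with 1 and 2 at an unadjusted p under 0.05 by edgeR and medians of 0.49 and 0.33 on the log2 scale.

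Compared with batch 1 directly, 0 of the 9 genes passed in batch 2 by edgeR, against 0.102% of all genes tested, with 3 (Lgr5, Lrig1 and Smoc2) at an unadjusted p under 0.05. Lgr5 had an adjusted p of 0.0992 by edgeR and 0.0427 by DESeq2, where it was the 1 gene of the 9 that passed, and 0 passed with limma-voom. Groups did not overlap for Lgr5, Ascl2, Lrig1 and Smoc2, all lower in batch 2. Among all genes tested, the 2 batches did not overlap, higher or lower, for 16.5%. Both libraries of batch 2 lay below all of batch 1 for 8.70%.

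**Figure D5:**
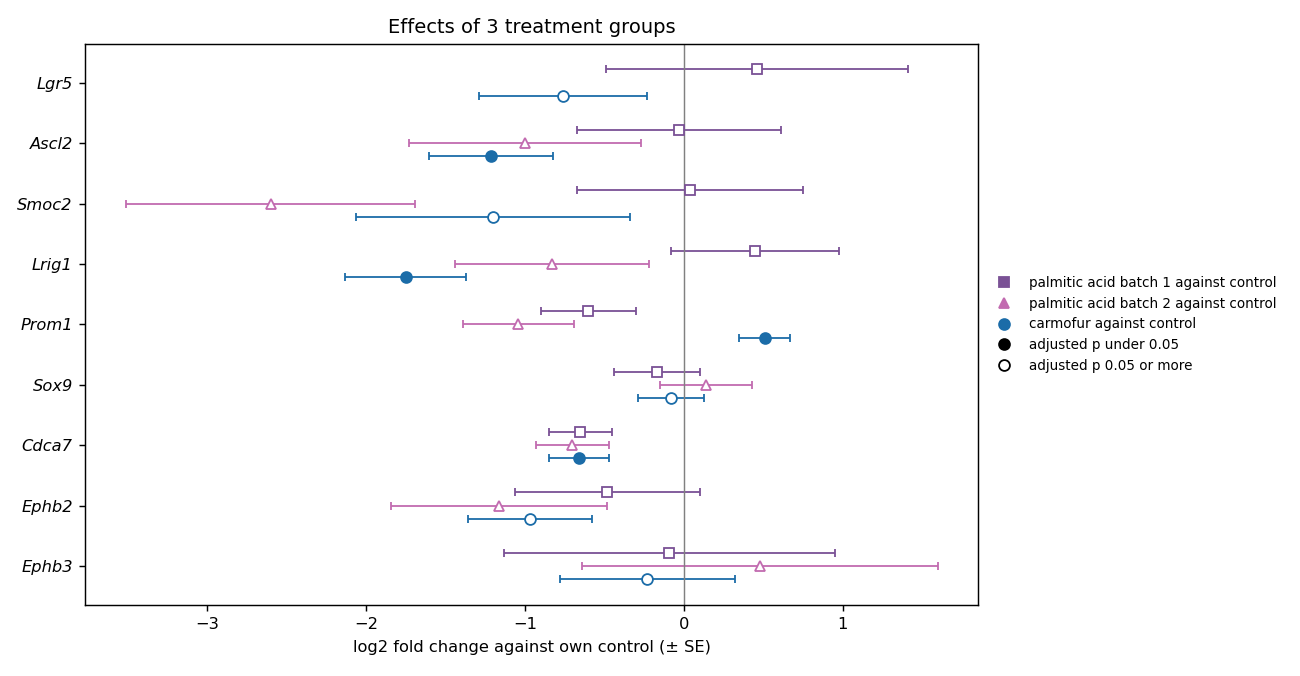
Log2 fold change against the treatment's own control, with its standard error, of the 9 detected genes for palmitic acid batch 1, palmitic acid batch 2 and carmofur; filled points passed at an adjusted p under 0.05. Lgr5 in batch 2 is left out because both libraries are at 0, and the batches share their controls. Lrig1, Cdca7, Ascl2 and Prom1 with carmofur are filled, and Cdca7 lies between -0.70 and -0.65 in all 3 comparisons.

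The difference between the carmofur effect and the palmitic acid batch 1 effect, each against its own control, was tested in 1 fit of all 35 libraries. Of the 9 genes 0 passed by edgeR, DESeq2 or limma-voom, against 0.69% of all 14052 genes tested by edgeR. Prom1 and Lrig1 had an unadjusted p under 0.05 by edgeR. Prom1, which rose with carmofur and was lower in 3 of 3 batch 1 libraries than the control median, differed by 1.12 ± 0.40 (SE) on the log2 scale (p = 0.00731, adjusted p = 0.328). Lrig1 differed by -2.21 ± 0.90 (SE; p = 0.0174, adjusted p = 0.479). For Cdca7 the difference was 0.01 ± 0.41 (SE), with a 95% interval from -0.80 to 0.82, so effects of unequal size are not excluded by it.

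Some of these genes share their place in the genome with others. On mm10 with GENCODE M21, Lrig1 (chr6:94604529-94700158) overlaps Slc25a26 on the opposite strand, which held 449 counts over all libraries. Prom1 (chr5:43993620-44102032) overlaps Gm42716 on the same strand, with 175 counts. Lgr5 (chr10:115450311-115587780) overlaps A930009A15Rik on the opposite strand, with 36 counts. Ascl2 (chr7:142966829-142969264), Cdca7 (chr2:72476159-72486893), Sox9 (chr11:112782224-112787760), Ephb2 (chr4:136647539-136835988) and Ephb3 (chr16:21204755-21223305) overlap no annotated gene there. The libraries were strand-specific, per the labels' protocols. The strand setting of the counting was not given in the sources used here.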

How the data were processed

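Libraries of mouse tumour organoids were quantified by the authors with Salmon 1.3.0 and the build mm10, per the submitters' processing notes. For the annotation, the release is not given in the sources used here. One deposited table holds estimated counts per gene as whole numbers, not normalized. Genes without a symbol (1243 rows, 0.0216% of counts) were kept in the counts that entered the fits, and 0 value columns belonged to no listed sample. The palmitic acid (8 libraries) and carmofur (27) experiments were fitted separately, over all groups of each, with edgeR 4.0.16 in R 4.3.3: filterByExpr with a minimum count of 10, TMM scaling, robust quasi-likelihood tests and Benjamini-Hochberg adjustment over all genes tested, called at an adjusted p under 0.05. Alternatives used DESeq2 1.42.0, limma-voom 3.58.1, other scalings and filters, left-out libraries and library blocks. Correlations used log2(CPM + 1) with 100000 permutations (Python 3.11.15, numpy 2.4.6, scipy 1.17.1). Sets of 3 and 3 larger blocks come from library numbers in the labels, which do not call them batches. The genes named are the 10 listed genes, genes of the pathway and marker lists and, by rule, the 3 genes most like Lgr5 (mean of at least 5 CPM). The genes and lists (crypt-base, Wnt, ephrin, Notch, ErbB, regenerative, cell type and cell cycle) were chosen with earlier results of these data known. Libraries of a group differed by more than sampling noise (chi-square over its degrees of freedom at least 7.87), so none were merged. Same-numbered control and treated libraries did not deviate together (r from -0.03 to 0.05 with carmofur), so the numbers were not used as pairs. The fits across genes were tested on simulated data.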

Additional observations from a re-analysis of the deposited data

How the results depend on the processing

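Of 992 recomputed values of single genes and of the correlated pair, 895 kept their direction and their side of the threshold. A call was lost in 54 and gained in 4. A change of sign occurred in 39, none of them past the threshold (lowest adjusted p 0.851). Most values had not passed at first and so could not lose a call. With carmofur, Ascl2 lost its call in 26 alternatives and kept it in 20, and Prom1 lost it in 23 and kept it in 23. Cdca7 lost its call in 4 and kept it in 42. The correlation of Ascl2 and Cdca7 was lost in 1 and kept in 3. No alternative ended the call of Lrig1 with carmofur. Leaving out each of the 27 carmofur-experiment libraries was an alternative chosen after seeing the data. Without filtering, 19 genes were called between the palmitic acid batches, 3541 with carmofur and 94 between blocks, against 10, 901 and 178 with it. DESeq2 called 55 genes and 1 member of the list in batch 2, 1 member between the batches, 348 genes between blocks and 195 for the difference between treatments, where limma-voom called 254. With merged batches the palmitic acid calls were 70 genes and 1 member, and the difference between treatments 147 genes. Without the 3 libraries that stood apart carmofur changed 929 genes and 2 members, 105 genes differed between blocks and 0 pairs were correlated. Counts summed by set gave 334 genes and 1 member.

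Replicate numbers do not pair the libraries: 3 of 19 correlated best with their own number. With the replicate number as a block, carmofur changed 799 genes and 3 members, and 42 genes in batch 1, 28 in batch 2, 8 between batches and 56 for the difference between treatments were called. In that fit Ascl2 did not pass with carmofur (log2 fold change -1.29, adjusted p = 0.189), Ephb3 was at 0.04 and Sox9 at 0.03 with carmofur, and Cdca7 at -0.19 and Ephb3 at 0.40 for the difference.

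Leaving out 1 set at a time gave 740 to 981 genes and 1 to 4 members with carmofur, 111 to 289 genes and 0 to 1 members between blocks (1 without set 5) and 57 to 129 genes for the difference. Leaving out 1 library gave 827 to 953 genes and 2 to 4 members with carmofur, 21 to 72 genes in batch 1, 23 to 48 genes and 0 to 1 members in batch 2 (1 without control 1) and 2 to 14 between batches. Ascl2 lost its carmofur call without set 1, 2, 3, 6, 7, 8 or 9 and Prom1 without set 1, 4, 6, 7 or 8. The test between blocks could not be fitted without set 1, 4 or 8.

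Log2 values of the listed genes also changed sign as follows. For carmofur, Ephb3 was at 0.23 with limma-voom and between -0.49 and 0.02 with 1 set left out (above 0 without set 7). For the difference between treatments, Cdca7 was at -0.01 with RLE scaling and with DESeq2 and at -0.02 with limma-voom, and with 1 set left out it was between -0.17 and 0.19 (below 0 without sets 2, 3, 7 and 8). Ephb2 was at 0.07 and Ephb3 at 0.63 with limma-voom, and Ephb3 was between -0.37 and 0.16 with 1 set left out (0.00 or above without sets 3 and 7). Sox9 was at -0.03 with merged batches, at -0.02 without the 3 libraries and between -0.05 and 0.18 with 1 set left out (below 0 without sets 1 and 5). In batch 1, merging gave Lgr5 -0.30, Smoc2 -0.59 and Ephb3 0.16, and Ascl2 was at 0.18 with limma-voom. With 1 library left out, batch 1 values ran from -0.74 to 0.67 for Ascl2, -0.46 to 0.72 for Smoc2, -1.10 to 0.30 for Ephb3 and -0.29 to 0.01 for Sox9. Batch 2 values of Sox9 ran from -0.09 to 0.34. Between batches they ran from -0.25 to 0.11 for Cdca7, -0.94 to 0.02 for Prom1 and -1.51 to 0.09 for Ephb2. The causes were not tested. Some libraries held only a few counts of Lgr5, Smoc2, Ephb3, Ascl2, Lrig1 or Ephb2, which limits the precision of those values.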
